A study of Homo sapiens with 8 samples.

Results

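Thrombospondin 1 (THBS1) and 8 other genes that are often discussed with the YAP co-activator were followed in 2 human lung cancer lines carrying a short hairpin RNA (shRNA) against KLF9, a Krüppel-like transcription factor, or a control shRNA. The 9 genes were taken by name: THBS1, CYR61 (also called CCN1), CTGF (also called CCN2), ANKRD1, AXL, AMOTL2, ESM1, AKAP12 and SEMA7A. They were picked with their difference between groups in NCI-H1688 known, so their values in that line are a description without a test. Tests on them are given in NCI-H146, whose earlier results were also known. The NCI-H1688 table held all 9 among 56981 genes. The NCI-H146 table held 7 of them among 17169 genes, and AXL and ESM1 were not analysed here in that line.

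NCI-H1688 and NCI-H146 are established lines labelled as small cell lung cancer. In each line a stable population made with lentiviral KLF9 shRNA and puromycin selection was set against one made the same way with control shRNA, with 2 libraries per group and 8 in all. All cells therefore carried a lentiviral hairpin and had been through puromycin, and the labels do not say which hairpin sequence was used or whether the libraries of a group came from separate infections, so the tests measure the spread between these libraries. The NCI-H146 libraries held 15406264 to 16109803 counts. Levels in that line are CPM, counts scaled to library size, and levels in NCI-H1688 are TPM, a measure scaled by transcript length and library size, as deposited.

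KLF9 itself did not follow its label in one line. KLF9 had 1.95 and 1.60 TPM in the NCI-H1688 samples given as KLF9 shRNA, against 0.298 and 0.644 TPM in control libraries, a log2(TPM + 1) difference of 0.92 ± 0.279 (SE) that did not pass the test (limma, adjusted p = 0.0952). The direction there is the opposite of the label, so those libraries are called shKLF9-labelled throughout. Whether the labels of this line were exchanged was not tested. With exchanged labels every NCI-H1688 direction given here would turn round, and a gene called lower in both lines would have moved in opposite directions. In NCI-H146, KLF9 had 24.9 and 32.2 CPM in KLF9 shRNA cells and 66.9 and 61.8 CPM in control cells, and it fell (log2 difference -1.17 ± 0.283, edgeR quasi-likelihood test, adjusted p = 0.0131). That call was lost without control replicate 2 (adjusted p = 0.255, edgeR) and without control replicate 3 (adjusted p = 0.101, edgeR), with log2 differences of -1.08 and -1.23. Of 10 neuroendocrine markers that define small cell lung cancer, 1, UCHL1, averaged at least 1 TPM in NCI-H1688, and NEUROD1 was at 0 in all 4 libraries. By contrast, 8 squamous and basal epithelial markers summed to 4356 and 4372 TPM in the shKLF9-labelled libraries and 3281 and 3475 TPM in control libraries, which goes against the small cell label. In NCI-H146, 7 of the 10 neuroendocrine markers had a row and 5 were tested. Of these, 4 rose (CHGA, CHGB, SYP and DLL3), beside 8.01% of all tested genes called higher. Whether either line is as labelled was not tested. Mitochondrially encoded genes took 8.56% of counts in replicate 1 of the NCI-H146 KLF9 shRNA group and 0.897% in its replicate 2, against 0.907% and 1.20% in the controls. In NCI-H1688 they took 18.2% and 16.8% of TPM in the shKLF9-labelled libraries and 15.4% and 14.7% in control libraries.

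Matricellular proteins are secreted into the extracellular matrix, where they signal to cells through integrins and other receptors rather than serving as structural fibres. YAP and its relative TAZ (encoded by WWTR1) are held in the cytoplasm by the Hippo kinase cascade. When they enter the nucleus they bind TEAD transcription factors and switch on genes that include CYR61, CTGF, ANKRD1, AMOTL2 and AXL. THBS1, CYR61 and CTGF are the matricellular proteins of the set, AXL is a receptor tyrosine kinase, and ESM1, AKAP12 and SEMA7A have other roles.

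The TEAD factors recognise GGAATG, so the promoters of 3 members that hold these letters are shown beside one that does not. Each window runs from 250 bases before to 50 bases after an annotated start, 5′ to 3′ on the gene's strand, from RefSeq on GRCh38.p14. Capitals mark GGAATG, or CATTCC where the match lies on the opposite strand. The THBS1 window is chr15:39580829-39581128 on the plus strand, CTGF is chr6:131951323-131951622 on the minus strand, AMOTL2 is chr3:134374398-134374697 on the minus strand and ESM1 is chr5:54985544-54985843 on the minus strand.
THBS1: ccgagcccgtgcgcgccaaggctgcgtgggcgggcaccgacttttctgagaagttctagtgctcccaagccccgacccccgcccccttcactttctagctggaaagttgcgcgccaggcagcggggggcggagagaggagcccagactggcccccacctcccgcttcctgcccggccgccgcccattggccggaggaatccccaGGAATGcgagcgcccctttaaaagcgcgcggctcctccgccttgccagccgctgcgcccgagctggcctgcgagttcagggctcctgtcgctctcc
CTGF: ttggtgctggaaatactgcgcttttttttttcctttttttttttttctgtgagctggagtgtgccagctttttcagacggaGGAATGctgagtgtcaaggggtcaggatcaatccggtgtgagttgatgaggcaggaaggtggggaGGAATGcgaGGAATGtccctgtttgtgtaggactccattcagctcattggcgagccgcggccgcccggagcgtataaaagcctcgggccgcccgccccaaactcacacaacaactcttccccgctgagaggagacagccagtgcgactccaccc
AMOTL2: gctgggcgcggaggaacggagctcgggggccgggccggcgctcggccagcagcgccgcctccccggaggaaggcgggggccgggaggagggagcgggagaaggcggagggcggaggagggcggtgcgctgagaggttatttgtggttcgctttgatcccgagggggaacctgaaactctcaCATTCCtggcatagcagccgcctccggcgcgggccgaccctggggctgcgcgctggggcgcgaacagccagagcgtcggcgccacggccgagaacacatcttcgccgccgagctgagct
ESM1: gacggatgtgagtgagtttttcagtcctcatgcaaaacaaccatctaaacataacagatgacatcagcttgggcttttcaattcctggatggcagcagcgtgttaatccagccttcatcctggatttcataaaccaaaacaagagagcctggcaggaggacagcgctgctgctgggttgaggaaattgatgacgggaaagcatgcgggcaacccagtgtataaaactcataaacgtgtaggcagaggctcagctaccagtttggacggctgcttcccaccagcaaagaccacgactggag
CTGF held 3 matches, with their first bases 169, 104 and 95 bases before the start. THBS1 held 1 match 46 bases before the start. AMOTL2 held 1 on the opposite strand, 69 bases before the start of the window shown. AMOTL2 has 2 windows, and the other, chr3:134375368-134375667, held no match.

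The promoter table held windows for 8 of the 9 members (CYR61 had none), 13 in all, and GGAATG on either strand was found in 6 windows belonging to 6 members. Of all 35116 windows in the table, 14.0% held at least 1 match, 1.37% at least 2 and 0.128% at least 3. ANKRD1 held 2 matches and was the only member with the AP-1 letters TGANTCA, which 7.71% of all windows held. ESM1 and SEMA7A held none of the TEAD letters. The GC box GGGCGG, letters bound by Sp and Krüppel-like factors, was found 4 times for THBS1 and 3 times for CTGF. The 2 windows of SEMA7A held it 5 and 3 times, and AXL, AMOTL2 and AKAP12 at most 2 times per window. Of all windows, 45.0% held it at least once and 15.8% at least 3 times. A match describes the letters only.

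In NCI-H1688, THBS1 was much lower in the shKLF9-labelled libraries. THBS1, a secreted glycoprotein that binds CD36 and CD47 and can release TGF-beta from its latent form, had 54.02 and 54.10 TPM in those libraries and 309.3 and 273.3 TPM in control libraries. Its mean was 5.39-fold lower, a log2(TPM + 1) difference of -2.41 ± 0.076 (SE), and ranked 36 from the lowest of 14754 genes tested. CYR61, an integrin-binding matrix protein, had 202.9 and 197.1 TPM in the shKLF9-labelled libraries and 403.8 and 418.4 TPM in control libraries. For both genes the pair of libraries within a group lay close together and the groups did not overlap. In these bulk libraries fewer cells making a transcript and less of it per cell cannot be told apart.

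CTGF, the close relative of CYR61, did not part the groups in NCI-H1688. It had 4.85 and 5.97 TPM in the shKLF9-labelled libraries and 5.38 and 6.84 TPM in control libraries, and these ranges overlap. The log2(TPM + 1) difference of CTGF was -0.15 ± 0.169 (SE). It was the only member whose groups overlapped in this line: the other 8 were lower without overlap, as were 33.8% of all tested genes.

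AXL, the receptor of the ligand GAS6, had 50.8 and 52.4 TPM in the shKLF9-labelled libraries and 96.2 and 90.3 TPM in control libraries, a mean 1.81-fold lower. AMOTL2, which binds YAP and holds it out of the nucleus while being itself a YAP target, had 46.7 and 48.4 TPM in the shKLF9-labelled libraries and 65.1 and 63.4 TPM in control libraries. That is a difference of -0.43 ± 0.0585 (SE) on the log2(TPM + 1) scale, smaller than that of AXL at -0.84 ± 0.0621. ANKRD1, an ankyrin repeat protein of muscle and a much used YAP reporter gene, was barely detected, with 0.767 and 0.468 TPM in the shKLF9-labelled libraries and 1.21 and 0.992 TPM in control libraries. From the spacing of low TPM values these stand for about 21 and 12 reads, against about 33 and 27 reads in controls, and ANKRD1 was below the mean of 1 TPM that testing required.

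ESM1, a secreted proteoglycan also known as endocan, had the largest difference of the members. It had 1.12 and 1.34 TPM in the shKLF9-labelled libraries, about 42 and 46 reads, against 14.0 and 13.0 TPM in control libraries, about 521 and 483 reads. The mean of ESM1 was 10.98-fold lower, and its log2(TPM + 1) difference of -2.70 ± 0.134 (SE) understates this because the level is low. SEMA7A, a semaphorin anchored to the membrane that signals through integrins and plexin C1, had 3.11 and 2.65 TPM in the shKLF9-labelled libraries and 12.4 and 13.0 TPM in control libraries, a mean 4.42-fold lower. AKAP12, a scaffold that holds protein kinases A and C, had 11.3 and 11.7 TPM in the shKLF9-labelled libraries and 38.8 and 35.8 TPM in control libraries, a mean 3.25-fold lower. The groups of all 3 genes were far apart next to the spread within each group.

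Of the 8 members tested in NCI-H1688, 7 were called lower (adjusted p under 0.05 with limma), beside 9.67% of all tested genes called lower. Because these genes were chosen on this contrast, nothing is read from that count, and with 1 library left out it was 0 or 1. In order of mean TPM in control libraries the members ran CYR61, THBS1, AXL, AMOTL2, AKAP12, ESM1, SEMA7A, CTGF and ANKRD1. ESM1 and SEMA7A overlapped there, and the other neighbours did not. In the shKLF9-labelled libraries the order was CYR61, THBS1, AXL, AMOTL2, AKAP12, CTGF, SEMA7A, ESM1 and ANKRD1, with no overlap between neighbours.

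**Figure D1:**
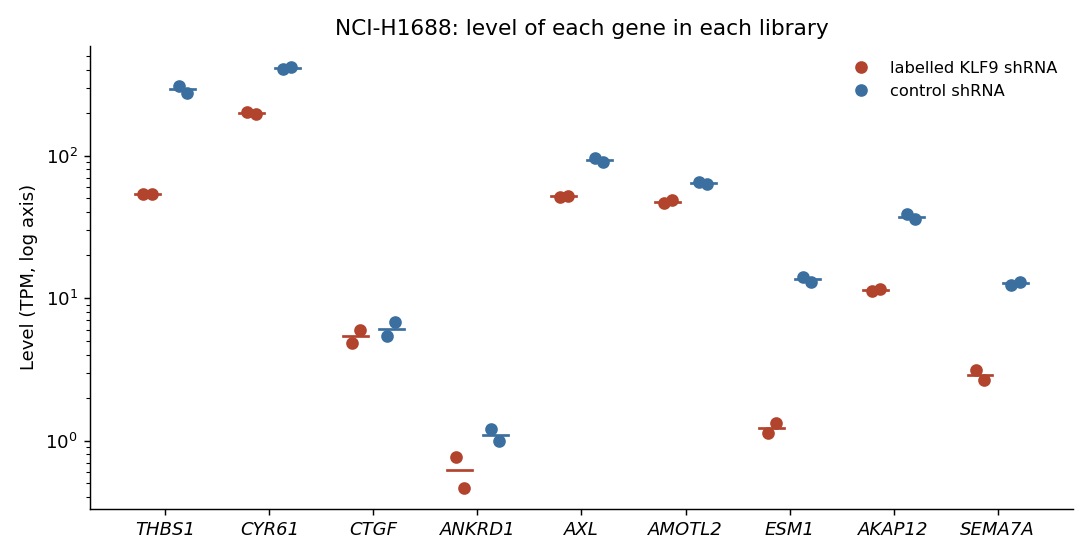
Level of each of the 9 genes in the 4 NCI-H1688 libraries, in TPM on a log axis, with 1 point per library and a line at each group mean. The shKLF9-labelled libraries (red) lie below the control libraries (blue) for every gene but CTGF, whose 4.85 and 5.97 TPM overlap the 5.38 and 6.84 TPM of the controls.

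NCI-H146 gives a second line for 7 of the genes, and among them THBS1 there had the lowest fold against control cells. THBS1 had 3.79 and 10.2 CPM in KLF9 shRNA cells (56 and 164 counts) and 75.5 and 35.0 CPM in control cells (1122 and 594 counts). It fell by 2.97 on the log2 scale (SE 0.444, edgeR quasi-likelihood test, adjusted p = 0.00128), its mean was 7.89-fold lower, and it ranked 37 from the lowest of 13129 genes tested. The libraries of each group differed by over 2-fold for this gene, and still every KLF9 shRNA library lay below every control library. Of the 10 alternatives tried, all kept the call, with adjusted p up to 0.0400, reached without control replicate 2.

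CYR61 had 13.3 and 11.2 CPM in KLF9 shRNA cells (197 and 179 counts) and 33.5 and 20.1 CPM in control cells (497 and 341 counts), and fell with a log2 difference of -1.13 ± 0.329 (SE, edgeR, adjusted p = 0.0293). CTGF, whose groups overlapped in NCI-H1688, had 1.08 and 1.43 CPM in KLF9 shRNA cells (16 and 23 counts) and 5.05 and 2.42 CPM in control cells (75 and 41 counts). It fell with a log2 difference of -1.55 ± 0.483 (SE, edgeR, adjusted p = 0.0384), on few counts. The groups of both genes did not overlap. AMOTL2 had 40.6 and 45.8 CPM in KLF9 shRNA cells and 95.1 and 68.7 CPM in control cells, and fell with a log2 difference of -0.92 ± 0.284 (SE, edgeR, adjusted p = 0.0364).

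AKAP12 had 21.4 and 23.3 CPM in KLF9 shRNA cells and 38.2 and 39.7 CPM in control cells. These groups lay apart, but the log2 difference of -0.80 ± 0.287 (SE) did not pass the test (edgeR, adjusted p = 0.0627). SEMA7A had 6.63 and 10.8 CPM in KLF9 shRNA cells and 14.2 and 7.78 CPM in control cells. The SEMA7A groups overlapped (log2 difference -0.33 ± 0.378, edgeR, adjusted p = 0.566), whereas in NCI-H1688 they were far apart. The difference between the lines was not tested, since their tables were normalized separately. ANKRD1 had 1 and 0 counts in KLF9 shRNA cells and 0 and 1 counts in control cells, too few for any comparison.

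Of the 6 members tested in NCI-H146, 4 fell (THBS1, CYR61, CTGF and AMOTL2) and none rose, beside 9.12% of all tested genes that fell. Of the 7 members with a row, 5 had groups that did not overlap and were lower in KLF9 shRNA cells, beside 31.9% of all tested genes. Of the 4 that fell, 3 (THBS1, CYR61 and AMOTL2) were also called lower in NCI-H1688, by its labels. Because the members were picked with their NCI-H1688 difference known, nothing is read from this overlap. The 2 control libraries were not alike: replicate 2 was above replicate 3 for THBS1, CYR61, CTGF, AMOTL2 and SEMA7A, though not for AKAP12. Without control replicate 2, THBS1 was the only member still called, and the adjusted p was 0.486 for CYR61, 0.527 for CTGF and 0.497 for AMOTL2. Without control replicate 3 the adjusted p of AMOTL2 was 0.122. CTGF was called in 6 of 10 alternatives, and besides the left-out library its adjusted p was 0.0588 with DESeq2, 0.0608 with limma-voom and 0.0532 with edgeR and no filter on low counts. AMOTL2 had 0.0547 with no such filter (edgeR). Without KLF9 shRNA replicate 1, the library with 8.56% mitochondrial counts, the log2 differences of THBS1, CYR61, CTGF and AMOTL2 were -2.42, -1.25, -1.36 and -0.83.

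Per kilobase of exon, the controls of NCI-H146 ordered the members as AMOTL2 (13.7 CPM per kilobase on average), CYR61 (10.9), THBS1 (6.04), AKAP12 (4.46), SEMA7A (2.89) and CTGF (1.60). In KLF9 shRNA cells the order was AMOTL2 (7.22 CPM per kilobase), CYR61 (4.99), AKAP12 (2.56), SEMA7A (2.29), THBS1 (0.765) and CTGF (0.538). THBS1 thus stood above AKAP12 on average in control cells and below it in KLF9 shRNA cells. By library, THBS1 was above AKAP12 in control replicate 2 (8.25 against 4.38) but below it in control replicate 3 (3.83 against 4.54).

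**Figure D2:**
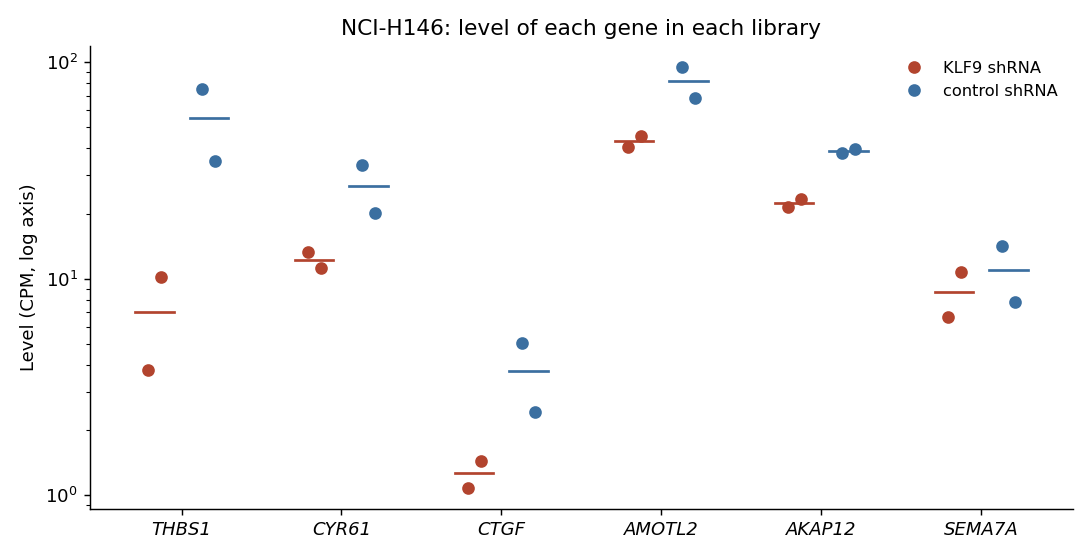
Level of 6 of the genes in the 4 NCI-H146 libraries, in CPM on a log axis, with 1 point per library and a line at each group mean. KLF9 shRNA libraries (red) lie below control libraries (blue) except for SEMA7A, and ANKRD1 is left out because it has libraries at 0 counts.

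**Figure D3:**
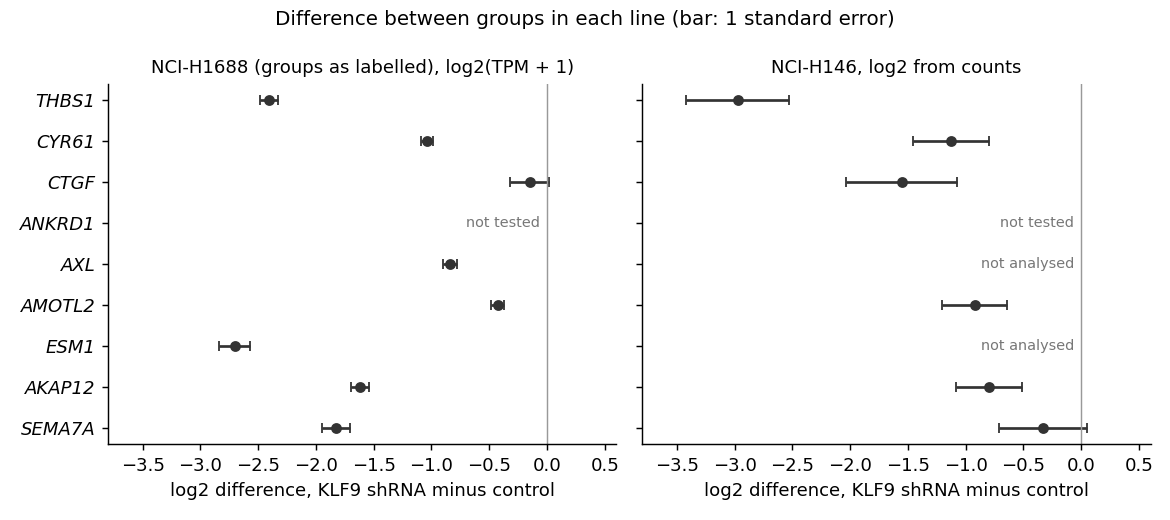
Log2 difference between KLF9 shRNA and control libraries for each gene, with bars of 1 standard error, on the log2(TPM + 1) scale in NCI-H1688 (left, groups as labelled) and from counts in NCI-H146 (right). THBS1 is at -2.41 in NCI-H1688 and -2.97 in NCI-H146, and the standard errors are wider in NCI-H146.

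The members sit in the genome as follows, by GENCODE 29 on GRCh38. THBS1 spans chr15:39581079-39599466 (plus strand), and SEMA7A lies on the same chromosome at chr15:74409289-74433958 (minus strand). CTGF is at chr6:131948176-131951373 (minus strand) and AKAP12 at chr6:151239999-151358557 (plus strand). CYR61 is at chr1:85580761-85583962 (plus strand), AMOTL2 at chr3:134355874-134375479 (minus strand) and ESM1 at chr5:54977864-55022671 (minus strand). ANKRD1 is at chr10:90912096-90921276 (minus strand) and AXL at chr19:41219203-41261766 (plus strand). THBS1 exons are overlapped by the antisense gene AC037198.2, which had 2.28 and 2.36 TPM in the shKLF9-labelled NCI-H1688 libraries and 25.6 and 18.2 TPM in control libraries. Whether counting used strand is not given in the sources used here, so where their exons overlap, reads of THBS1 and of AC037198.2 cannot be told apart. AC037198.2 had about 17 and 16 reads in the shKLF9-labelled libraries and about 186 and 132 in control libraries. For THBS1 these estimates were about 6824 and 6393 reads, against about 39075 and 34525. CTGF and AXL exons also have antisense genes over them, each at no more than 3.57 TPM in any library.

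YAP1, which encodes YAP, was not called in either line. YAP1 had 100.3 and 102.6 TPM in the shKLF9-labelled NCI-H1688 libraries and 101.6 and 84.0 TPM in control libraries (limma, adjusted p = 0.420). It had 29.4 and 41.5 CPM in NCI-H146 KLF9 shRNA cells and 39.5 and 45.8 CPM in control cells (edgeR, adjusted p = 0.546). The groups overlapped in both lines, and a p above the threshold does not show that YAP1 was alike in them.

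WWTR1, which encodes TAZ, fell in NCI-H146, with 32.9 and 38.3 CPM in KLF9 shRNA cells and 62.3 and 72.1 CPM in control cells (log2 difference -0.92 ± 0.276, edgeR, adjusted p = 0.0330). The call was lost without control replicate 2 (edgeR, adjusted p = 0.290) and without control replicate 3 (edgeR, adjusted p = 0.331). In NCI-H1688 it was not called (limma, adjusted p = 0.467). Of the 4 TEAD genes, TEAD3 was called in NCI-H1688, where it rose, with 19.8 and 20.5 TPM in the shKLF9-labelled libraries and 13.7 and 14.6 TPM in control libraries (limma, adjusted p = 0.0266), a call that leaving out any 1 library lost (limma, adjusted p up to 0.182). None of the 4 TEAD genes was called in NCI-H146 (edgeR).

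A list of 30 YAP and TEAD target genes other than the members gave 10 that fell and none that rose among 29 tested in NCI-H1688, beside 9.67% called lower and 6.36% called higher over all genes. The median log2(TPM + 1) difference of the list was -0.31, against -0.02 for all tested genes. F3, the tissue factor that starts blood clotting, had 267.0 and 246.9 TPM in the shKLF9-labelled libraries and 691.4 and 690.8 TPM in control libraries (log2 difference -1.43 ± 0.0581, limma, adjusted p = 0.00277). AREG, an EGF receptor ligand, had 385.6 and 374.2 TPM in the shKLF9-labelled libraries and 739.7 and 768.6 TPM in control libraries (log2 difference -0.99 ± 0.0503, limma, adjusted p = 0.00409). FJX1, GADD45A, FSTL3, HBEGF and LIMA1 also fell, by 1.01, 0.87, 0.78, 0.66 and 0.60 on the log2 scale. With any 1 of the 4 libraries left out, no gene of the list was called.

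In NCI-H146, 3 of 20 tested genes of the same list fell and none rose, beside 9.12% called lower and 8.01% called higher over all genes, with a median log2 difference of -0.35 against 0.01. HBEGF, a ligand of the EGF receptor, had 2.77 and 5.11 CPM in KLF9 shRNA cells and 17.3 and 8.61 CPM in control cells (log2 difference -1.71 ± 0.418, edgeR, adjusted p = 0.0136). LATS2, a Hippo kinase that is itself a YAP target, fell by 1.25 (edgeR, adjusted p = 0.0193), and LIMA1, an actin-binding protein, fell by 0.89 (edgeR, adjusted p = 0.0411). HBEGF and LIMA1 were called lower in both lines as labelled. Leaving out 1 library moved the count of called genes of the list widely. The count over all genes moved widely too, so nothing is read from those counts. Without control replicate 2 the adjusted p (edgeR) was 0.331 for HBEGF, 0.282 for LATS2 and 0.457 for LIMA1, and without control replicate 3 it was 0.0579 for LATS2 and 0.180 for LIMA1. Without KLF9 shRNA replicate 2 it was 0.0600 for LIMA1.

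**Figure D4:**
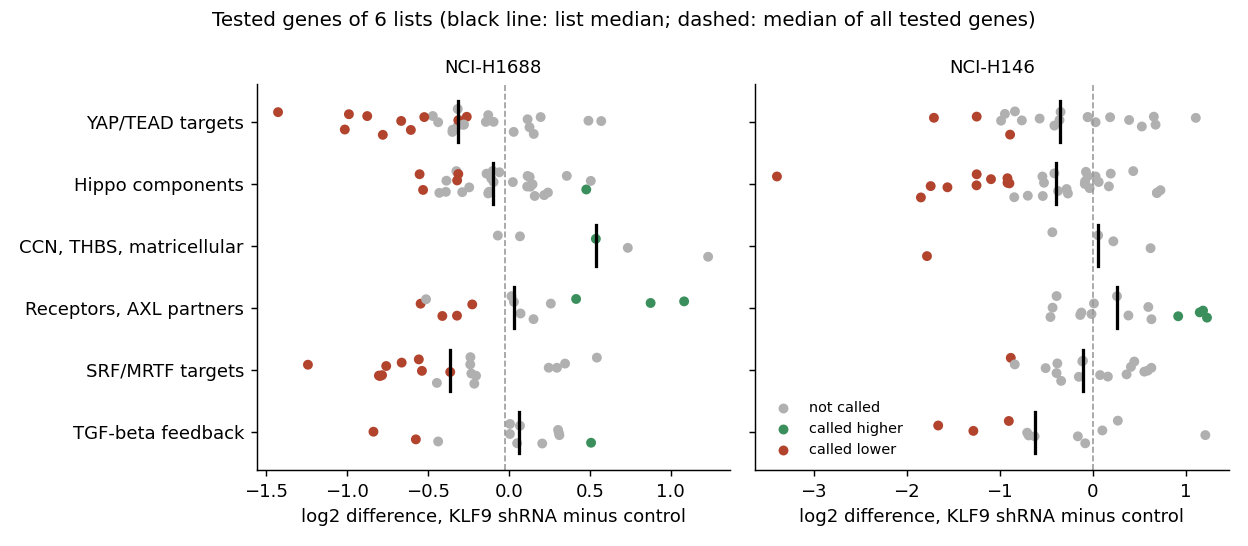
Log2 difference between KLF9 shRNA and control libraries for each tested gene of 6 lists, in NCI-H1688 (left, groups as labelled) and NCI-H146 (right), coloured by call. The black line marks the list median and the dashed line the median of all tested genes; YAP and TEAD targets have medians of -0.31 in NCI-H1688 and -0.35 in NCI-H146.

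In NCI-H146, 10 of 32 tested Hippo pathway genes fell and none rose, beside 9.12% called lower and 8.01% called higher over all genes, with a median log2 difference of -0.39. They included the kinase LATS1, with 30.0 and 29.2 CPM in KLF9 shRNA cells and 82.3 and 115.7 CPM in control cells (log2 difference -1.74 ± 0.290, edgeR, adjusted p = 0.00227). The large cadherin FAT4 fell by 1.85 and the FERM protein FRMD6 by 1.56 on the log2 scale. In NCI-H1688, 4 of 31 tested Hippo genes fell (WWC1, VGLL1, FRMD6 and AJUBA) and TEAD3 rose, beside 9.67% called lower and 6.36% called higher over all genes, with a median log2(TPM + 1) difference of -0.10. The counts of the lines were not tested against each other. FRMD6 was called lower in both lines as labelled, but its NCI-H1688 call held in 4 of 14 alternatives (limma, adjusted p 0.0274 to 0.216). LATS1 kept its call with each NCI-H146 library left out, whereas without control replicate 2 the adjusted p (edgeR) was 0.124 for FAT4 and 0.197 for FRMD6. No Hippo gene named here from NCI-H1688 was called with 1 of its libraries left out.

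Among the other CCN, thrombospondin and matricellular genes, 5 of 18 were tested in each line. Over all tested genes, 16.0% were called in either direction in NCI-H1688 and 17.1% in NCI-H146. CCN3, another CCN protein, fell in NCI-H146, with 16.0 and 8.54 CPM in KLF9 shRNA cells and 47.7 and 36.6 CPM in control cells (log2 difference -1.78 ± 0.341, edgeR, adjusted p = 0.00465; 0.148 without control replicate 2). THBS4 was abundant in NCI-H146, with 362.8 and 418.6 CPM in KLF9 shRNA cells and 349.9 and 321.4 CPM in control cells, and was not called (edgeR, adjusted p = 0.637). THBS3 was not called in NCI-H1688 (limma, adjusted p = 0.0502) or in NCI-H146 (edgeR, adjusted p = 0.277). In NCI-H1688 the 1 gene of this list that was called was SMOC1, a secreted calcium-binding protein, which rose by 0.54 on the log2(TPM + 1) scale. CCN5 had 1.67 and 1.83 TPM in the shKLF9-labelled NCI-H1688 libraries, about 115 and 117 reads. Its control libraries had 0.198 and 0.141 TPM, about 14 and 10 reads, and its mean was too low for testing. CCN3, CCN4 and CCN6 were at no more than 0.272 TPM in any library of that line.

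The receptors and partners of these proteins gave 3 that rose and 4 that fell of 13 tested in NCI-H1688. In NCI-H146 they gave 4 that rose and none that fell of 15 tested. Over all tested genes, 6.36% were called higher and 9.67% lower in NCI-H1688, and 8.01% and 9.12% in NCI-H146. GAS6, the ligand of AXL, had 103.0 and 103.7 TPM in the shKLF9-labelled NCI-H1688 libraries and 150.0 and 152.3 TPM in control libraries (log2 difference -0.54 ± 0.0489, limma, adjusted p = 0.00951). PROS1, another AXL-family ligand, rose by 0.88 there, and LRP1, the scavenger receptor that takes up THBS1, rose by 1.08. PLXNC1, the plexin receptor of SEMA7A, rose in NCI-H146, with 9.13 and 8.48 CPM in KLF9 shRNA cells and 2.96 and 4.95 CPM in control cells (edgeR, adjusted p = 0.0464; 0.435 if control replicate 2 is left out and 0.104 if control replicate 3 is). The THBS1 receptor CD47 was not called in either line (limma, adjusted p = 0.321 in NCI-H1688; edgeR, adjusted p = 0.290 in NCI-H146). CD36 was near 0 in NCI-H1688 and was not called in NCI-H146 (edgeR, adjusted p = 0.154).

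SRF with its MRTF co-activators shares many targets with YAP. Of 19 tested genes of that list, 9 fell and none rose in NCI-H1688, with a median log2(TPM + 1) difference of -0.36. Over all tested genes of NCI-H1688, 9.67% were called lower and 6.36% higher. TAGLN, an actin-binding protein, fell by 1.24, ACTB by 0.79 and MYH9 by 0.78. In NCI-H146, 1 of 17 fell, SRF itself, by 0.88 (edgeR, adjusted p = 0.0389; 0.410 if control replicate 2 is left out and 0.237 if control replicate 3 is), and the median was -0.11. Of the genes of TGF-beta feedback, 2 of 12 fell and 1 rose in NCI-H1688, and 3 of 11 fell and none rose in NCI-H146. Over all tested genes of NCI-H146, 9.12% were called lower and 8.01% higher. PMEPA1, a target and inhibitor of TGF-beta signalling, fell in both lines as labelled, by 0.84 in NCI-H1688 and 1.66 in NCI-H146, where the adjusted p was 0.347 without control replicate 2 (edgeR). As with the YAP list, none of SMOC1, GAS6, PROS1, LRP1, TAGLN, ACTB, MYH9 and PMEPA1 was called in NCI-H1688 with any 1 of its libraries left out.

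Markers of other cell types were set beside these genes. Endothelial markers, which ESM1 often accompanies, summed to 1.53 and 1.44 TPM in the shKLF9-labelled NCI-H1688 libraries and 1.21 and 1.47 TPM in control libraries, none of 9 reached the mean for testing, and TEK was at 0 in all 4 libraries. Fibroblast markers, which often go with THBS1 and CTGF, summed there to 26.1 and 23.5 TPM in the shKLF9-labelled libraries and 16.2 and 19.0 TPM in control libraries, most of it COL1A1, which rose, while COL3A1 was at 0 in all 4 libraries. In NCI-H146, fibroblast markers summed to 58.9 and 72.5 CPM in KLF9 shRNA cells and 134.1 and 83.2 CPM in control cells. COL1A1 was the 1 of 4 tested that fell there, and 2 of the 4, COL3A1 and PDGFRB, had log2 differences above 0 (0.38 and 0.17). Endothelial markers in NCI-H146 summed to 172.7 and 97.3 CPM in KLF9 shRNA cells and 59.1 and 65.7 CPM in control cells, nearly all of it ERG. Of epithelial markers, 3 of 8 rose and 2 fell in NCI-H1688, and 1 of 5 rose in NCI-H146. Of squamous and basal markers, 5 of 8 rose and 2 fell in NCI-H1688, and the 1 tested in NCI-H146 fell. Of leukocyte markers, 2 of 3 tested rose in NCI-H1688 and 1 of 2 fell in NCI-H146. Over all tested genes, 6.36% were called higher and 9.67% lower in NCI-H1688, and 8.01% and 9.12% in NCI-H146. The part of these markers in the results was not tested.

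The genes whose levels over the 4 libraries lay closest to THBS1 differed between the lines. Likeness was the Euclidean distance between log2 values, each less its own mean over the 4 libraries, over tested genes averaging 5 TPM or CPM and above. In NCI-H1688 the 5 nearest of 10541 genes were ESM1 (distance 0.316), AC037198.2 (0.418), SEMA7A (0.617), SNORA71A (0.649) and BCYRN1 (0.771), and AKAP12 came next. AC037198.2 overlaps THBS1 exons, and whether its reads include some of THBS1 was not tested. In NCI-H146 the 5 nearest of 10632 were FOS (0.293), HBA2 (0.415), PPP1R15A (0.527), TENT5C (0.534) and RGS2 (0.557). FOS, an AP-1 subunit induced within minutes of a stimulus, had 1.76 and 4.93 CPM in KLF9 shRNA cells and 36.0 and 14.8 CPM in control cells. CYR61 ranked 510 and AMOTL2 564 on this measure in NCI-H146. With 4 libraries that share depth and preparation the measure is a description. The nearest genes were picked on these same libraries, so nothing is read from their having the pattern of THBS1. FOS, TENT5C and RGS2 averaged 3.34, 1.59 and 3.11 CPM in KLF9 shRNA cells and passed the mean of 5 through their control libraries. In NCI-H1688 the same held for ESM1, AC037198.2 and SEMA7A, at 1.23, 2.32 and 2.88 TPM in the shKLF9-labelled libraries. ESM1, SEMA7A and AKAP12 were picked with their NCI-H1688 difference known, so nothing is read from their nearness to THBS1 there.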

How the data were processed

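Poly(A) RNA of 8 libraries was sequenced after fragmentation and copying with random primers, per the labels' protocols. For NCI-H146 the authors deposited a read count per gene (17169 genes, smallest row total 2), and for NCI-H1688 they deposited TPM, a length-scaled abundance (58434 rows). STAR 2.5.1, DESeq2 and GRCh38 appear, without roles, in the submitters' processing notes, and the counting program and its strand setting are not given in the sources used here. Rows of the TPM table that repeated a gene name (1453) were dropped in favour of the one with the highest mean, which left 56981 genes, and its columns summed to 842438.916 to 885110.775.

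Each line was fitted alone, under R 4.3.3, because the tables were normalized separately. Counts were tested with edgeR 4.0.16 (quasi-likelihood F test, TMM, filterByExpr, 13129 genes). TPM of the 14754 genes averaging 1 TPM or more were tested with limma 3.58.1 (with its trend option) as log2(TPM + 1), which understates changes of low genes. Adjustment was by Benjamini-Hochberg over all tested genes, and an adjusted p under 0.05 makes a call. For edgeR the SE was taken as the log2 difference over the root of F, without sign. CPM are counts scaled by TMM totals. TPM keep no depth, so reads in NCI-H1688 were estimated from the spacing of low values and exon lengths of GENCODE 29. DESeq2 1.42.0, limma-voom, other scalings and filters, and leaving out each library were alternatives. The tests were tried on simulated data.

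Genes named are the members, KLF9, up to 6 called genes of each of 12 lists per line with the largest change, partners of members, and the 5 genes nearest THBS1. The members and lists were chosen with earlier results of these data known. FOS and the other likeness genes are named by that measure.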

Additional observations from a re-analysis of the deposited data

Results flagged for a closer look

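For 8 of the named genes every KLF9 shRNA library lay on one side of every control library in NCI-H1688 and on the opposite side in NCI-H146. This difference between the lines was not tested, because the tables were normalized separately. Groups without overlap were common: of all tested genes in NCI-H1688, 33.8% were lower and 28.9% higher in that way. In NCI-H146 these shares were 31.9% and 30.6%. The share of all genes that parted in opposite directions in the 2 lines was not counted, so nothing is read from the number of such genes. In each pair below the first value is the ratio of the KLF9 shRNA mean to the control mean in NCI-H1688, as labelled, and the second that ratio in NCI-H146. For KLF9 the ratio was 3.76 in NCI-H1688 and 0.444 in NCI-H146. FOS was at 1.91 in NCI-H1688 and 0.132 in NCI-H146. Among TEAD factors, TEAD3 was at 1.42 in NCI-H1688 and 0.943 in NCI-H146, and TEAD4 at 0.906 in NCI-H1688 and 1.61 in NCI-H146. PLXNC1, the SEMA7A receptor, was at 0.648 in NCI-H1688, where it was below 1 TPM, and 2.23 in NCI-H146. The YAP targets FJX1 and FSTL3 were at 0.488 and 0.571 in NCI-H1688 and at 1.57 and 2.15 in NCI-H146. SDC1, a syndecan that binds THBS1, was at 0.800 in NCI-H1688 and 2.34 in NCI-H146. Of the 8, only FOS and SDC1 were called in both lines. Their adjusted p was 0.00735 and 0.0221 in NCI-H1688 (limma) and 0.00207 and 0.0115 in NCI-H146 (edgeR). Each of these calls was lost with at least 1 library of its line left out. TEAD3 was far from a call in NCI-H146 (edgeR, adjusted p = 0.874).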

How the results depend on the processing

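In NCI-H1688, 2366 genes were called (939 higher and 1427 lower). The count was 943 with no filter on low values and 834 with no intensity trend (488 higher and 346 lower). The split was 1131 higher and 1077 lower with mitochondrial genes left out. Without each library in turn it was 0 to 24 for all genes, 0 to 1 for members (7 with all libraries) and 0 in each case for the YAP list (10 with all libraries). Where no gene was called, 3327 and 3298 had an unadjusted p under 0.05. The replicate numbers of this line are shared only as numbers, and the deviations of same-numbered libraries correlated at -0.005. With a replicate block 1218 genes were called, and with a crossed block, chosen after seeing the data, 1168. No paired analysis was possible in NCI-H146 because its groups share only the number 2. There, 2250 genes were called, and 51 to 5026 without each library in turn. Members called numbered 4, and 2 with no filter on low counts (THBS1 and CYR61), and 1 to 5 without each library. The YAP list had 3 called, and 0 to 8. The sign reversed, without control replicate 2, for YAP1 (-0.0024, in a range up to 0.27) and CTGF (0.0010, in a range down to -0.30) in NCI-H1688 and for SEMA7A in NCI-H146 (0.20, in a range down to -0.72), none of which was called. The cause was not tested. Depth limits ANKRD1 in both lines and CTGF in NCI-H146.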
